A study of Mus musculus with 10 samples.

Results

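The renin-angiotensin genes Agt, Ace, Enpep and Agtr1a were followed through RNA of the terminal ileum of mice after vertical sleeve gastrectomy. The 4 genes were picked by symbol from 36401 gene rows, with earlier results of these libraries known, and each symbol matched 1 gene identifier. They are Agt (ENSMUSG00000031980), Ace (ENSMUSG00000020681), Enpep (ENSMUSG00000028024) and Agtr1a (ENSMUSG00000049115). Vertical sleeve gastrectomy (VSG) removes most of the stomach and leaves a narrow tube. The VSG group held 5 male C57Bl6 mice fed ad libitum after the operation, and the sham group held 5 male C57Bl6 mice with sham surgery that were pair-fed to the VSG mice (labelled SPF). All 10 mice had been made obese on a diet with 60% of its energy from fat, on which they were kept for 6 weeks before surgery at 8 weeks of age. About 8 weeks after surgery they were fasted overnight, and the terminal ileum was taken 1 hour after 0.5 mL of Osmolite, a liquid feed that they had also received around the operation, was given by gavage. The libraries held 15364651 to 34058181 estimated counts each, and the labels number the libraries of a group without saying more of the animals, so p-values measure the spread between these samples.

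The renin-angiotensin system makes and destroys short peptide hormones that control blood pressure and salt balance. Renin cuts angiotensin I from the precursor angiotensinogen, the product of Agt. Angiotensin-converting enzyme, the product of Ace, then removes the last pair of residues to give angiotensin II, which acts through the type 1 receptor encoded by Agtr1a. Aminopeptidase A, the product of Enpep, removes the first residue of angiotensin II to give angiotensin III, which still acts at that receptor. In the small intestine both enzymes sit on the brush border of enterocytes, where they also digest food peptides, and converting enzyme is found on endothelium as well.

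The stretch of Agt that encodes angiotensin I is shown because it holds the sites that the products of Ace and Enpep cut. It lies at chr8:124564450-124564479 on the minus strand (GRCm38, GENCODE M21), and the 30 bases encode 10 residues. The first codon in capitals encodes the residue that aminopeptidase A removes from angiotensin II, and the last 2 codons in capitals encode the residues that converting enzyme removes from angiotensin I.
Agt, angiotensin I codons: GACcgcgtatacatccaccccttcCATCTC

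The 250 bases before the transcription start of Agt, Ace and Enpep are shown because Agt is the gene whose VSG and sham values stood apart in 7 of the libraries, and because Ace and Enpep, although both brush border enzymes, differed in how they varied between libraries with high and low Gata4, a gene of gut position described below. The sequences are from RefSeq (GRCm38.p6). Agtr1a was not among the promoters used. Capitals mark the letters TATAAA on either strand. They also mark GATAA, the core letters bound by GATA factors, and GGGCGG, the core letters bound by Sp1, each likewise on either strand. Matches of different motifs do not overlap in the printed stretches, although 2 of the GGGCGG matches in Ace overlap one another.
Agt, chr8:124569707-124569956, minus strand: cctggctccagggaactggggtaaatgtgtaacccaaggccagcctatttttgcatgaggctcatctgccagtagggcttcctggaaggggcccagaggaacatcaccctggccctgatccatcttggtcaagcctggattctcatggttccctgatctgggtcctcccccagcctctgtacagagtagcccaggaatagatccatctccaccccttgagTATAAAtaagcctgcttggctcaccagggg
Ace, chr11:105967698-105967947, plus strand: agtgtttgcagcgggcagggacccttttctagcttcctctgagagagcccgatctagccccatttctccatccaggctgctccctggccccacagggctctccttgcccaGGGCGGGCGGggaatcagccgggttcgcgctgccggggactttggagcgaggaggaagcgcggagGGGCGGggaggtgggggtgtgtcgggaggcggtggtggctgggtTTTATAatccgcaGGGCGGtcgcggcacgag
Enpep, chr3:129332750-129332999, minus strand: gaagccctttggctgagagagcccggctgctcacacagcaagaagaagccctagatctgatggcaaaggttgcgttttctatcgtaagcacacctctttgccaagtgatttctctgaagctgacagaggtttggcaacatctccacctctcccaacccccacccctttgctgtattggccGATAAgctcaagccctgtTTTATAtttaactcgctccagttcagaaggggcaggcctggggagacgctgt
Agt held TATAAA once on its own strand, beginning 30 bases before the start, and neither other motif. Ace held the reverse complement of TATAAA once, 31 bases before the start, and GGGCGG 4 times, in a stretch with 67.2% G and C. Enpep held GATAA once, 70 bases before the start, and the reverse complement of TATAAA once. Of all 32851 windows of that length, 12.4% held TATAAA, 22.6% held GATAA and 32.7% held GGGCGG on either strand, so each motif is common. RefSeq lists a further Ace start within the gene, and the 250 bases before it (chr11:105974939-105975188) held none of the 3 motifs. The deposited counts pool all Ace transcripts.

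In 3 libraries most of the listed markers of gut position went against the label of terminal ileum. Gata4 encodes a transcription factor made in duodenum and jejunum. It had 109.5 to 183.5 CPM (counts scaled to library size by trimmed mean of M values) in VSG 2, sham 2 and sham 4. It stood at 1.72 to 6.28 CPM in the other 7, which are VSG 1, 3, 4 and 5 and sham 1, 3 and 5. The limit of 20 CPM that parts them therefore lay in a gap between VSG 3, at 6.28, and sham 2, at 109.5. Of the 8 listed genes of the upper small intestine, 5 were higher in each of the 3 than in each of the 7: Gata4, Lct, which encodes lactase, Adh6a, Gip and Onecut2. Lct had 1451 to 2643 CPM in the 3 and 3.72 to 24.7 CPM in the 7. Pdx1 and Cybrd1 overlapped, and Slc40a1, the iron exporter, went the other way, at 3.68 to 13.6 CPM in the 3 and 35.8 to 98.3 CPM in the 7. The summed level of 5 genes of ileal bile acid uptake (Fabp6, Slc10a2, Fgf15, Osta and Ostb) was 352.6 to 538.5 CPM in the 3 libraries and 4171 to 8984 CPM in the other 7. The fold changes of the members below are given in all 10 libraries and again in the 7, while some other results are given in the 10 only.

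Agt, the hormone precursor, was lower in VSG than in sham where libraries with high Gata4 were set aside. Agt stood at 15.5, 17.4, 14.99, 13.4 and 12.9 CPM in VSG 1 to 5, and at 29.2, 20.1, 25.04, 9.25 and 30.4 CPM in sham 1 to 5. Over the 10 libraries the groups overlapped, with sham 4 the lowest of all, while the 5 VSG values lay close together. The mean was 14.9 ± 1.79 CPM in VSG and 22.8 ± 8.58 CPM in sham (± SD of 5 libraries each), and the log2 fold change was -0.62 ± 0.27 (SE). In the 7 libraries with low Gata4 the groups did not overlap: the 4 VSG libraries lay between 12.9 and 15.5 CPM, and the 3 sham libraries between 25.04 and 30.4 CPM. The mean there was 14.2 ± 1.25 CPM in VSG (SD, n = 4) and 28.2 ± 2.82 CPM in sham (SD, n = 3), a log2 fold change of -0.99 ± 0.15 (SE), or 0.504 times the sham level. All VSG libraries lay below all sham libraries for 3.79% of the 15911 genes tested in the 7 libraries, and for 0.293% of the 15678 tested in the 10. Of the members, 1 of 4 (Agt) did so in the 7 libraries and 0 of 4 in the 10. The opposite, all VSG libraries above all sham libraries, held for 4.32% and 0.255% of the genes tested and for 0 of 4 members in either. Agt was proposed with this contrast known, so its difference is a description, and nothing is read from a test of it. The 3 libraries left out do not repeat it: VSG 2 stood at 17.4 CPM, between sham 2 at 20.1 and sham 4 at 9.25.

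**Figure D1:**
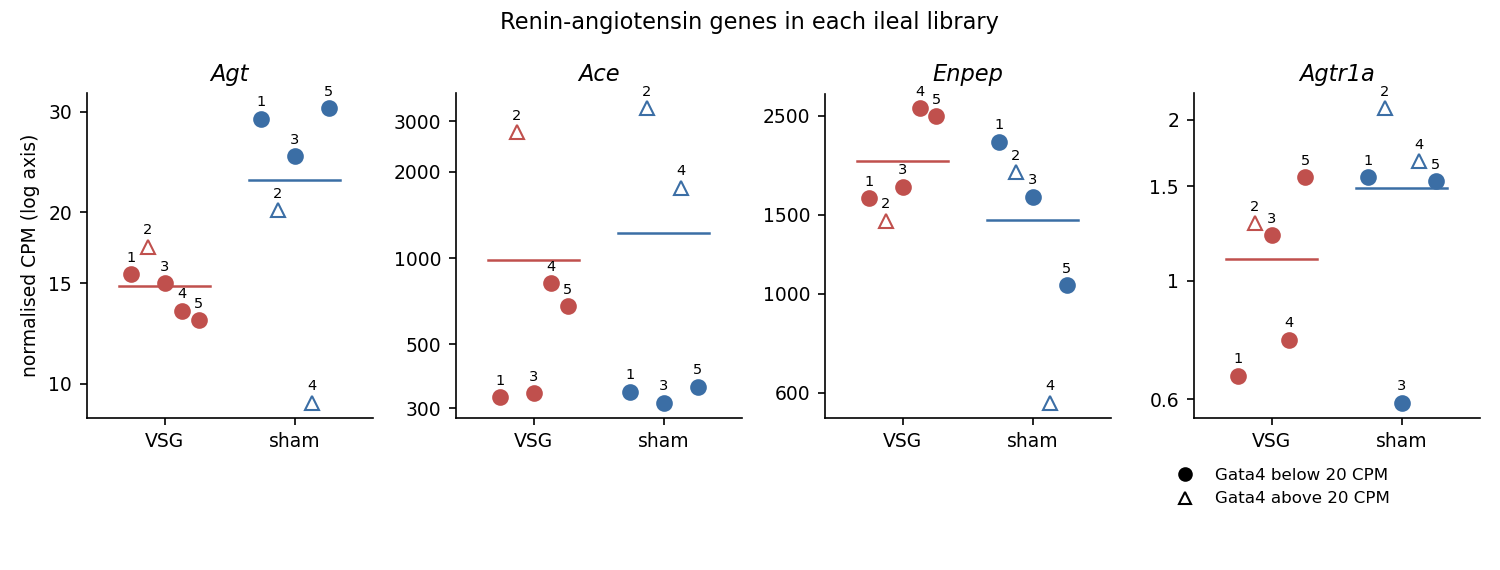
Normalised CPM on log axes of Agt, Ace, Enpep and Agtr1a, 1 panel per gene, with VSG left and sham right. Numbers are replicates, horizontal lines group means, circles the 7 libraries with Gata4 below 20 CPM and open triangles the 3 above. For Agt the VSG circles lie between 12.9 and 15.5 CPM and the sham circles between 25.04 and 30.4, and for Ace the triangles lie above all circles.

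Adipocytes are a known source of angiotensinogen, and fat can be taken with the gut wall. In a bulk sample, fewer cells of a type and less RNA per cell cannot be told apart. All 7 adipocyte markers listed had counts, with Adipoq at 1.04 to 4.93 CPM in VSG and 0.808 to 10.7 in sham. Their summed level was 99.5 to 188.7 CPM in VSG and 61.5 to 241.3 in sham, and in the 7 libraries 99.5 to 139.6 in VSG and 61.5 to 163.2 in sham. Cidec, which encodes a lipid droplet protein, gave a large part of the sum, averaging 83.1 CPM in VSG and 87.6 CPM in sham. Adipoq averaged 3.47 and 4.25 CPM. In the 7 libraries Cidec stood at 58.6 to 79.8 CPM in VSG and 31.9 to 53.0 CPM in sham. VSG was higher there without overlap, while the other 6 markers overlapped. In the 3 libraries with high Gata4, Cidec stood at 119.6 to 180.8 CPM. Of the 7, sham 1 had the lowest adipocyte sum and sham 5 the highest, at 29.2 and 30.4 CPM of Agt. Over the list, 5 of 7 adipocyte markers had a log2 fold change below 0 in the 7 libraries, with a median of -0.63 beside -0.05 over all genes tested, and 0 were called by edgeR. All 8 fibroblast markers had counts and a fold change below 0 there, with a median of -0.49 and 0 called by edgeR, and their sum was 336.4 to 503.9 CPM in VSG and 270.9 to 644.6 CPM in sham. The fibroblast sum was 625.5 and 644.6 CPM in sham 1 and sham 5, above every VSG library, and 270.9 CPM in sham 3, below every VSG library. In the 7 libraries 9042 of the 15911 genes tested also had a fold change below 0. So did 9 of 10 smooth muscle markers, 6 of 6 of neurons and glia and 6 of 8 of endothelium. Of pericyte markers 3 of 6 did, and of epithelial markers 3 of 8. The part of any of these cells in the Agt values was not tested.

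Ace, which makes angiotensin II, was high in the 3 libraries with high Gata4, and its VSG and sham values overlapped. Ace stood at 327.7, 2748, 337.6, 818.7 and 679.6 CPM in VSG 1 to 5, and at 342.9, 3329, 312.9, 1761 and 356.8 CPM in sham 1 to 5. VSG 2, sham 2 and sham 4 were higher than any other library. The mean was 2613 ± 792.7 CPM in the 3 libraries with high Gata4 (SD, n = 3) and 453.8 ± 206.2 CPM in the 7 others (SD, n = 7), a ratio of 5.76. Each of the 3 lay above each of the 7 for 6.08% of the genes tested and for 1 of 4 members, Ace, and below for 5.64% and 0 of 4. The 3 libraries were parted by a measured gene, so this is a description. Between the operations the mean was 982.4 ± 1010 CPM in VSG and 1220 ± 1330 CPM in sham (± SD of 5 libraries each), and the log2 fold change was -0.31 ± 0.80 (SE). That value turned to 0.50 without sham 2 and was -1.17 without VSG 2. In the 7 libraries Ace averaged 540.9 ± 247.1 CPM in VSG (SD, n = 4) and 337.5 ± 22.4 CPM in sham (SD, n = 3), a log2 fold change of 0.68 ± 0.34 (SE). VSG 4 and VSG 5 lay above the 3 sham libraries there, and VSG 1 and VSG 3 lay within their range. Endothelial markers, 8 of 8 with counts, summed to 191 to 237 CPM in the 3 libraries with high Gata4 and to 93.6 to 222.6 CPM in the other 7, and their part in the Ace values was not tested.

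Enpep, which turns angiotensin II into angiotensin III, overlapped between libraries with high and low Gata4. Enpep stood at 1632, 1455, 1735, 2596 and 2488 CPM in VSG 1 to 5, and at 2184, 1868, 1647, 569.5 and 1043 CPM in sham 1 to 5. The groups overlapped, with the highest values in VSG 4 and VSG 5 and the lowest in sham 4. The mean was 1981 ± 523.4 CPM in VSG and 1462 ± 650.3 CPM in sham (± SD of 5 libraries each), and the log2 fold change was 0.44 ± 0.35 (SE). In the 7 libraries the log2 fold change was 0.38 ± 0.30 (SE), and it ran from 0.14 to 0.65 with 1 of the 7 left out. The 3 libraries with high Gata4 held 569.5 to 1868 CPM and the other 7 held 1043 to 2596 CPM. Markers of the epithelium, 8 of 8 with counts, summed to 16547 to 23086 CPM in VSG and to 13364 to 27921 CPM in sham. The lowest sums were in sham 4 and sham 5, the libraries that were also lowest in Enpep. The highest sums, in sham 3 and VSG 1, went with 1647 and 1632 CPM of Enpep. VSG 4, the highest in Enpep, had a sum of 19833 CPM. The part of epithelial cells in the Enpep values was not tested.

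Agtr1a, the receptor, was the scarcest of the 4 genes, with 15 to 65 estimated counts per library. Agtr1a stood at 0.664, 1.28, 1.22, 0.775 and 1.56 CPM in VSG 1 to 5, and at 1.56, 2.10, 0.591, 1.67 and 1.53 CPM in sham 1 to 5. The groups overlapped: the other 4 sham libraries lay at 1.53 CPM or more, while sham 3 was the lowest of all 10. The log2 fold change was -0.45 ± 0.35 (SE) in all libraries and -0.24 ± 0.45 (SE) in the 7. In the 7 it ran from -0.56 without sham 3 to -0.037 without sham 1. All 6 pericyte markers listed had counts, and their sum was 126.9 to 169.9 CPM in VSG and 61.9 to 289.3 CPM in sham. Sham 3 was lowest and sham 2 highest in the pericyte sum as in Agtr1a. Sham 3 was also lowest in the summed markers of smooth muscle, at 314.4 CPM, of fibroblasts, at 270.9, and of endothelium, at 93.6. It was lowest in those of neurons and glia, at 3.11 CPM, and highest in those of epithelium, at 27921 CPM. The part of all these cells in the Agtr1a values was not tested. Agtr1b, a close copy of Agtr1a in mice that was picked for the text after its values were seen, averaged 4.7 estimated counts per library. How reads that fit both genes were shared out is not given, so the Agtr1a values are uncertain.

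**Figure D2:**
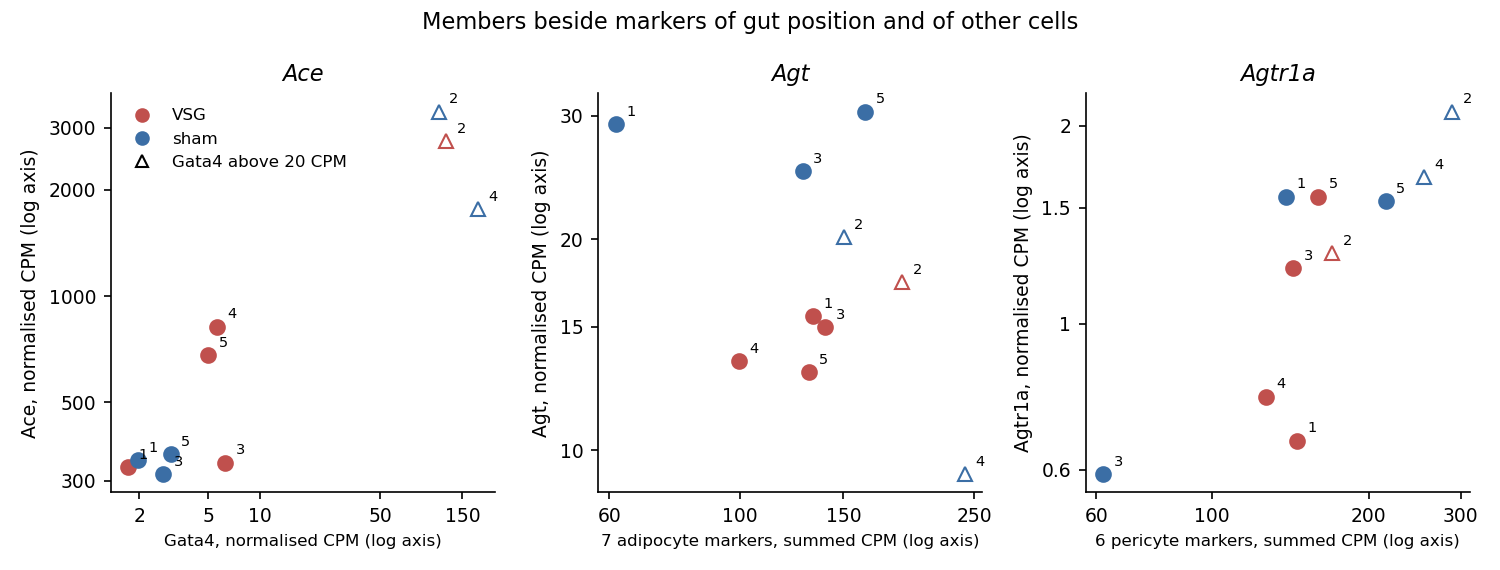
Normalised CPM of Ace against Gata4, of Agt against the sum of 7 adipocyte markers, and of Agtr1a against the sum of 6 pericyte markers, all on log axes with 1 point per library and its replicate number. Colours give VSG and sham, and open triangles the libraries with Gata4 above 20 CPM. Ace is at 1761 CPM or more in the 3 triangles and at 818.7 CPM or less elsewhere. Sham 1 has 29.2 CPM of Agt and the lowest adipocyte sum. Sham 5 has 30.4 CPM of Agt, the most of all libraries. Its adipocyte sum, 163.2 CPM, is the highest among libraries with Gata4 below 20 CPM. Cidec gives a large part of the adipocyte sum. Sham 3 is lowest in Agtr1a and in the pericyte sum, and also in the smooth muscle, fibroblast and endothelial sums, not drawn.

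None of the 4 genes passed edgeR's adjusted threshold, which 0% of the genes tested passed: 0 of 15678 in the 10 libraries and 0 of 15911 in the 7. At an unadjusted p under 0.05, edgeR had 595 genes (3.8%) and 1107 genes (6.96%) in these fits. Without sham 3 these counts were 1940 and 3305, and without VSG 2 the count in the remaining 9 libraries was 1135. Without VSG 5 the count in the 7 libraries fell to 692. No gene passed edgeR's adjusted threshold in any of these. DESeq2 called 14 of 24546 genes in the 10 libraries, with 0 members. In the 7 it called 81 of 23944 genes, of which 1, Agt, was a member. Calls by limma-voom were 0 of 15678 and 2 of 15911 genes, with no member. Since the members were chosen with this contrast known, nothing is read from their counts.

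Per length of transcript, Enpep lay above Ace on average, and Agtr1a was the lowest of the genes tested in all 10 libraries. Enpep was at 473.9 ± 125.2 CPM per kb of its longest protein-coding transcript in VSG and 349.8 ± 155.5 in sham (± SD of 5 libraries each). Ace was at 200.2 ± 205.9 CPM per kb in VSG and 248.8 ± 271.1 in sham, and its range over all 10 libraries, 63.8 to 678.5, overlapped that of Enpep, 136.2 to 621. In the 7 libraries with low Gata4, Enpep held 249.5 to 621 CPM per kb and Ace 63.8 to 166.9, so both enzymes kept this order without overlap. Agt was at 7.85 ± 0.944 CPM per kb in VSG and 12.1 ± 4.54 in sham, below every value of Ace. Agtr1a was at 0.50 ± 0.17 CPM per kb in VSG and 0.678 ± 0.251 in sham, below every value of Agt. Transcript lengths are those of GENCODE M21 and not of the build the authors used.

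Of 27 other genes of the system that were listed, 26 matched a gene row, all but Ren2, and 15 had enough counts to be tested in the 10 libraries. Of the 15, 0 were called higher and 0 lower by edgeR, 0 had an unadjusted p under 0.05, and 0 were called by DESeq2 or limma-voom. Their fold changes were above 0 for 10 genes and below 0 for 5, with a median log2 fold change of 0.07, beside -0.05 over all genes tested. In the 7 libraries 16 were tested with 0 called, 11 above 0 and 5 below, and a median of 0.10 beside -0.05. The 11 untested genes in the 10 libraries were Ren1, which encodes renin itself, the receptors Agtr1b, Agtr2, Mas1 and Mrgprd, the proteases Ctsg, Cma1, Cma2, Mcpt4 and Cpa3 of white cells, and Tmem27, which encodes a membrane protein that helps amino acid transporters reach the cell surface. Ren1 averaged 1.00 estimated count per library and had a count in 7 of 10. Agtr2 and Mrgprd had 0 counts in all 10 libraries, which allows up to 0.078 to 0.203 CPM, depending on the library (3 counts per library, counting error only).

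Anpep, which encodes aminopeptidase N, the next enzyme to trim angiotensin peptides from the front, had the highest level of the pathway, at 11174 ± 1819 CPM in VSG and 7901 ± 3262 CPM in sham (± SD of 5 libraries each). Its log2 fold change was 0.50 ± 0.35 (edgeR adjusted p = 0.977), and 0.46 ± 0.28 in the 7 libraries (edgeR adjusted p = 0.765). The difference did not pass the threshold in either.

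The ratio of Enpep to Anpep overlapped between VSG and sham and between libraries with high and low Gata4. Enpep was 0.145 to 0.180 times Anpep per kb in VSG and 0.140 to 0.220 times in sham, and 0.148 to 0.161 times in the 3 libraries with high Gata4 against 0.140 to 0.220 times in the other 7.

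**Figure D3:**
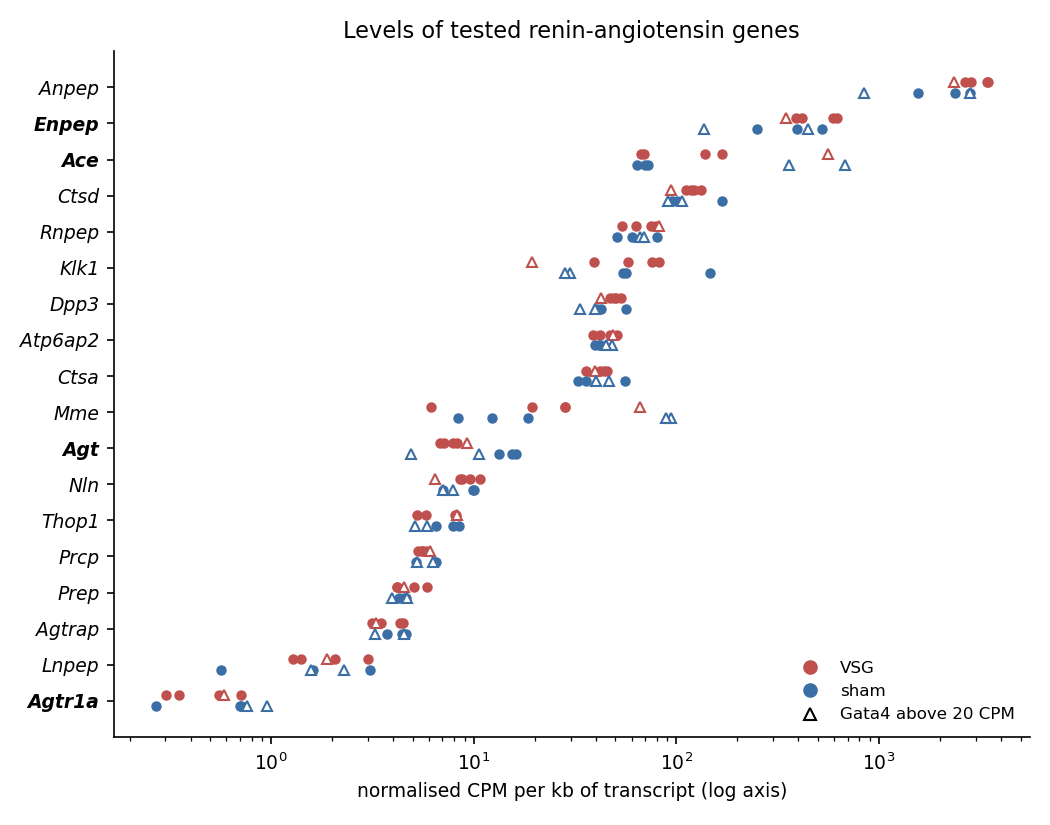
Normalised CPM per kb of the longest protein-coding transcript (log axis) for the genes of the system tested in all 10 libraries and reported here, ordered by mean level, with the 4 members in bold. Each point is a library, VSG drawn above sham, and open triangles mark Gata4 above 20 CPM. Anpep, Enpep and Ace lead the genes shown, Agtr1a is the lowest of them, and the triangles of Ace and Mme lie to the right of their circles.

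Mme encodes neprilysin, another peptidase that cuts angiotensin I. It stood at 49.2, 531.2, 225.4, 225.4 and 155.2 CPM in VSG 1 to 5, and at 149.2, 751.1, 98.4, 716.3 and 67.0 CPM in sham 1 to 5. VSG 2, sham 2 and sham 4 were again the highest. The log2 fold change was -0.59 ± 0.75 in all libraries (edgeR adjusted p = 0.977) and 0.65 ± 0.49 in the 7 (edgeR adjusted p = 0.802), with opposite signs as for Ace.

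The remaining named genes had log2 fold changes closer to 0. Dpp3, a dipeptidyl peptidase that degrades angiotensin II, stood at 130.0 ± 11.3 CPM in VSG and 113.8 ± 22.5 CPM in sham (± SD of 5 libraries each), and its log2 fold change was 0.19 ± 0.15 (edgeR adjusted p = 0.977). Prep, prolyl endopeptidase, had a log2 fold change of 0.11 ± 0.12 and Rnpep, aminopeptidase B, of 0.11 ± 0.16. Atp6ap2, the prorenin receptor, stood at 105.5 ± 11.4 CPM in VSG and 100.5 ± 7.53 CPM in sham, with a log2 fold change of 0.07 ± 0.11. The lysosomal proteases Ctsd and Ctsa had log2 fold changes of 0.04 ± 0.19 and -0.02 ± 0.16, and in the 7 libraries both had the other sign, at -0.0065 and 0.02.

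**Figure D4:**
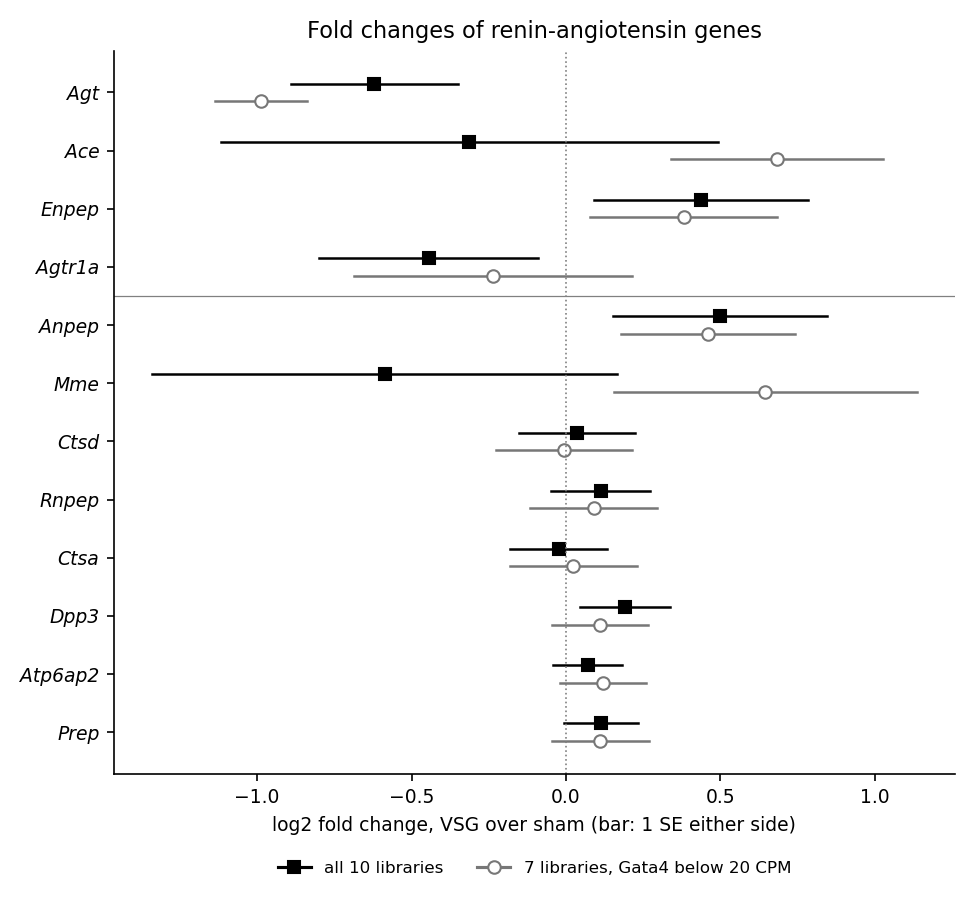
Log2 fold change of VSG over sham for the 4 members (above the line) and the named genes of the pathway reported here (below it), with bars of 1 SE on either side. Squares use all 10 libraries and open circles the 7 with Gata4 below 20 CPM. Agt is at -0.62 and -0.99, while Ace and Mme lie below 0 in the 10 libraries and above 0 in the 7.

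No listed gene of the mineralocorticoid response, sodium uptake or the kinin system was called by edgeR, which called no gene at all in either fit. Of 9 listed genes of the mineralocorticoid response and sodium uptake, 7 were tested with 0 called and a median log2 fold change of 0.20, and in the 7 libraries 0 were called with a median of 0.25. Of 4 listed genes of the kinin system, whose peptide bradykinin is also cut by converting enzyme, 2 were tested with 0 called.

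Over 14138 genes whose mean reached 1 CPM, the 3 most like each member were those with the smallest root-mean-square difference between log2 CPM profiles over the 10 libraries, each centred on its mean. For Enpep they were Rundc3b (0.183), Anpep (0.184) and App (0.221), beside a median of 0.704 over all genes. For Ace they were Fbln1 (0.289), Slc7a8 (0.324) and Ms4a10 (0.331), beside a median of 1.32. Fbln1 stood at 203.5 to 317.1 CPM in the 3 libraries with high Gata4 and at 36.8 to 81.7 CPM in the other 7. For Agt they were BC057022 (0.202), Arhgap24 (0.224) and Tgif1 (0.235), beside a median of 0.608, and for Agtr1a C1qtnf9 (0.210), Dixdc1 (0.220) and Vash1 (0.225), beside 0.635. The median distance over all genes differed with the member, so these values compare genes within a member only.

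Leaving out each library in turn showed which values rest on 1 animal. In the 10 libraries the log2 fold change of Agt ran from -0.81 without sham 4 to -0.49 without sham 5, and in the 7 from -1.06 without sham 3 to -0.94 without sham 5. That of Ace ran from -1.17 to 0.50 in the 10 and from 0.41 without VSG 4 to 0.86 without VSG 1 in the 7. Agt kept 1 direction in all of these, and Ace changed direction with sham 2. In the 7 libraries the Agt groups did not overlap, so leaving out 1 library could not have turned its direction.

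**Figure D5:**
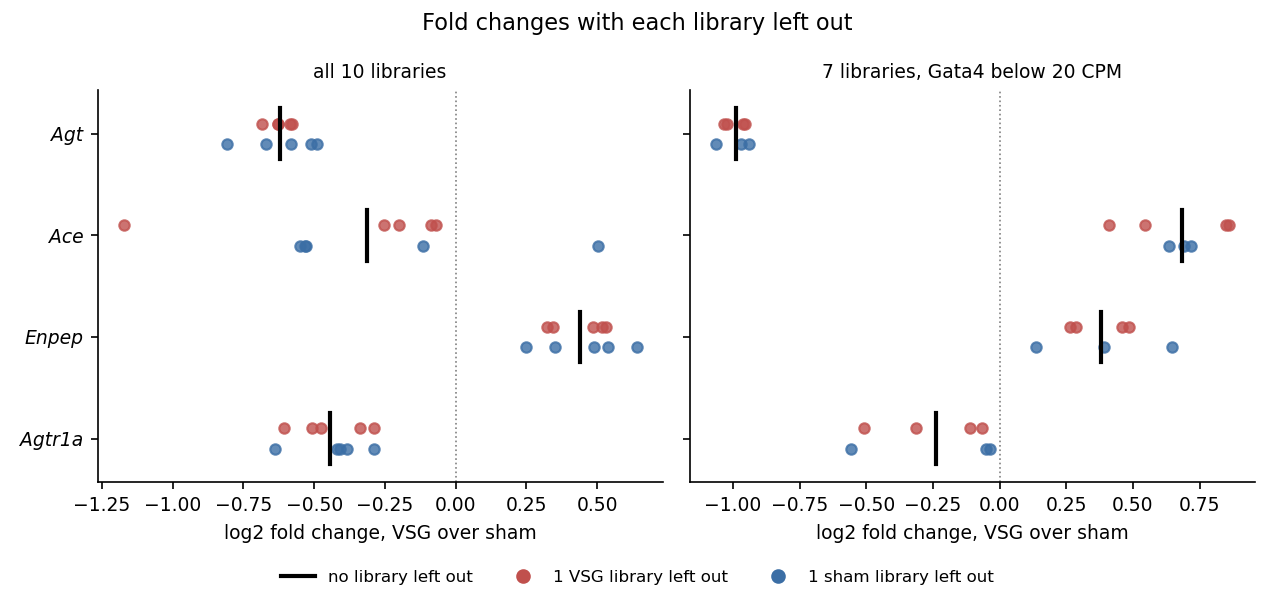
Log2 fold change of VSG over sham for each member with no library left out (black bar) and with 1 VSG or 1 sham library left out (points), in all 10 libraries and in the 7 with Gata4 below 20 CPM. Agt stays between -1.06 and -0.94 in the 7 libraries, and Ace runs from -1.17 to 0.50 in the 10.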

How the data were processed

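RNA of the terminal ileum was sequenced as single-end 50-base reads from Illumina TruSeq libraries, per the labels' protocols. The authors deposited estimated counts per gene, in files named for RPKM, whose totals differ by library and of which 61.2% are whole numbers. The deposited log2 values equal the log2 of those counts over a factor per library minus the sham median (largest SD of the offset 3.5e-07). The submitters' processing notes list DESeq and mm9. Neither aligner nor strand handling is given in the sources used here. By GENCODE M21, Gm11651 and Gm42628 overlap the spans of Ace and Enpep on the opposite strand. Gm48161, whose type is given as sense intronic (lying in an intron), overlaps that of Agtr1a on the same strand. Whether exons of these genes overlap was not examined, so it is not known whether their reads could be told apart.

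Counts were rounded and tested over the whole table with edgeR 4.0.16 (R 4.3.3): filterByExpr, TMM factors, quasi-likelihood F test, Benjamini-Hochberg threshold 0.05. The 4 members passed the filter in both fits. CPM of each library are those of the 10-library fit, and log2 CPM use a prior count of 2. SE is the fold change over the root of F. The procedure was tested on simulated data. The simulated libraries did not differ in gut position, so that test does not cover such differences. Alternatives were DESeq2 1.42.0, limma-voom (limma 3.58.1), other scalings, no filter, a replicate block and each library left out.

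The members and gene lists were chosen with earlier results of these data known. Named pathway genes are the called ones, the 8 with the highest mean and the 4 with the lowest p. Of these, 1 gene is not reported here, though counts over the list include it.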

Additional observations from a re-analysis of the deposited data

Results flagged for a closer look

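Of 39 groups of 4 or 5 libraries examined, for the members and the named pathway genes, 2 held a library far from the others. That is close to the share that chance gives, about 1 in 20. Agtr1a stood at 0.591 CPM in sham 3, against 1.53 to 2.10 CPM in the other 4 sham libraries. Ctsd stood at 358.7 CPM in sham 3, against 193.7 to 226.6 CPM in the other 4.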

How the results depend on the processing

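The log2 fold changes of the 4 members in the 10 libraries moved by less than the SD between replicates under all 17 alternatives each, and Ace alone changed sign, without sham 2. In the 7 libraries with low Gata4 the same held under 13 of 14 alternatives for Agt and Ace and under all 14 for Enpep and Agtr1a. Use of all 10 libraries moved Agt to -0.62 and Ace to -0.31. The count of genes called, 0, became 14 with DESeq2 in the 10 libraries. In the 7 it became 81 with DESeq2, 4 with no filter, 2 with limma-voom, and 0 to 2 with a library left out. No other renin-angiotensin gene was called under any alternative run. Among the other named genes, signs of values near 0 turned, and so did that of Mme, which was 0.65 in the 7 libraries. Ctsd in the 10 libraries was -0.0078 with library totals, and -0.023 to 0.24 with a library left out, and Ctsa -0.098 to 0.11. In the 7, Ctsd was 0.0026 with DESeq2 size factors and with DESeq2, 0.026 with limma-voom, 0.056 with the replicate block, 0.037 with all 10 libraries and -0.16 to 0.30 with a library left out. There Ctsa was -0.044 with library totals, -0.02 with all 10 libraries and -0.13 to 0.30 with a library left out, Mme was -0.59 with all 10 libraries, and Rnpep and Prep ran from -0.056 to 0.29 and from -0.0077 to 0.17. The cause was not tested. Library totals moved the median of all genes in the 7 to -0.15, from -0.05, with Agt at -1.10.

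Deviations of same-numbered libraries from their group means correlated at -0.345 to 0.211, and 0 of 5 VSG libraries were closest to their own number. These deviations also hold differences in gut position. The lowest value was that of number 4, where sham 4 had high Gata4 and VSG 4 did not. Whether mice were matched by number therefore cannot be told from these values. With the replicate block 0 genes were called and 408 had an unadjusted p under 0.05 in the 10 libraries, against 595 without it, and in the 7 libraries 0 were called and 534 had one, against 1107 without it. Agtr1a rests on 15 to 65 counts per library.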
